A study of Homo sapiens with 45 samples.

Results

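NINJ2, ARHGAP29, NSMF, FBP1 and APOL3 are 5 of the 38557 genes measured in this study. They were chosen by their level in the guide groups, because they stood among the largest increases in Jurkat cells given CRISPR guides against subunits of the BAF complex. Those values are therefore given below as a description with no test. The genes were not picked by the effects of BRM014, an inhibitor of the ATPases of the same complex, and those effects are tested. Earlier results of these data were known when the genes were chosen.

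RNA with poly(A) tails was sequenced from 4 human cell lines of T-cell acute lymphoblastic leukaemia. There were 15 groups, each with 3 libraries that the labels call biological replicates, or 45 in all. Jurkat cells expressing Cas9 received lentiviral guides, were selected in puromycin over 4 days and gave RNA on day 10. The guides targeted the AAVS1 site (gAAVS1, the control), ARID1A (gARID1A), ARID1A and ARID1B (gARID1A_1B), SMARCA4 (gSMARCA4), or SMARCA4 and SMARCA2 (gSMARCA4_A2). Jurkat cells were also kept in 1 uM BRM014 or in 0.01% DMSO for 6 h or 8 d. TALL-1, CCRF-CEM and KOPT-K1 had the same concentrations of BRM014 or DMSO for 6 h only. Levels are TPM, transcripts per 1000000, which corrects for gene length and lets genes be compared within a library. Differences are on the log2(TPM + 1) scale, which understates changes of genes near 0, and the error beside each is a standard error from limma. P-values are from limma with Benjamini-Hochberg adjustment over all tested genes, with a threshold of 0.05. They reflect the spread of libraries within groups, estimated over all groups of a table together and not from the compared groups alone. In RNA from bulk cultures, a shift in which cells are present and a shift in RNA per cell cannot be told apart.

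BAF complexes use the energy of ATP to move nucleosomes and so open or close regulatory DNA. SMARCA4 and SMARCA2 are their alternative ATPase subunits, and ARID1A and ARID1B are the alternative large subunits that define the canonical form. The 5 genes have unrelated jobs. ARHGAP29 is a GTPase-activating protein that acts downstream of RAP1 and is best known in endothelial cells. NINJ2 is a small adhesion protein of the ninjurin family, known from injured nerve. NSMF, also called Jacob, carries signals from NMDA-type glutamate receptors to the nucleus of neurons. FBP1 is fructose-1,6-bisphosphatase, the gluconeogenic enzyme that opposes phosphofructokinase in liver and kidney. APOL3 is an interferon-inducible apolipoprotein L that acts inside cells on membranes.

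The genes lie at 5 separate places in GRCh38.p14, all on the minus strand, at chr12:564296-663445 for NINJ2, chr1:94168905-94314592 for ARHGAP29, chr9:137447570-137459334 for NSMF, chr9:94603133-94640263 for FBP1 and chr22:36140323-36166177 for APOL3. Promoter windows from RefSeq on that build were at hand for 4 of them, each running from 250 bases before to 50 after a transcript start. A second ARHGAP29 window, chr1:94237535-94237834, is not printed; it held 5 GC boxes, 36 CG dinucleotides and no RUNX core. The other windows are shown because the 4 genes were all higher in the guide groups and the windows let their starts be compared by eye. The printed windows are chr12:643587-643886 and chr12:663396-663695 for 2 NINJ2 starts, chr1:94247697-94247996 for ARHGAP29, chr9:137459285-137459584 for NSMF and chr9:94639469-94639768 for FBP1, all read 5′ to 3′ on the minus strand. Capitals mark GC boxes (GGGCGG on either strand), a RUNX core (TGTGGT on either strand) and the cAMP response element (TGACGTCA).
NINJ2 start 1: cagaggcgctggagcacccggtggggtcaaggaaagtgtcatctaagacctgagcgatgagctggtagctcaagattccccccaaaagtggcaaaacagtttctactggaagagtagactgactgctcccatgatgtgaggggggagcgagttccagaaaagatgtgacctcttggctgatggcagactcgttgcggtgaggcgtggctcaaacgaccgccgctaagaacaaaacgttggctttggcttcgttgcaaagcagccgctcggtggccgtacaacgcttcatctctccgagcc
NINJ2 start 2: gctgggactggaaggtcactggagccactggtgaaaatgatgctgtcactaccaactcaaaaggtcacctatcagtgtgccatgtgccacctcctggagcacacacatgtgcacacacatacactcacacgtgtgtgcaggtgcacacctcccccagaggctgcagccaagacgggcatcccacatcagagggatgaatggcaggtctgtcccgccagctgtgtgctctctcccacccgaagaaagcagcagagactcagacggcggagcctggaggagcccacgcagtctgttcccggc
ARHGAP29: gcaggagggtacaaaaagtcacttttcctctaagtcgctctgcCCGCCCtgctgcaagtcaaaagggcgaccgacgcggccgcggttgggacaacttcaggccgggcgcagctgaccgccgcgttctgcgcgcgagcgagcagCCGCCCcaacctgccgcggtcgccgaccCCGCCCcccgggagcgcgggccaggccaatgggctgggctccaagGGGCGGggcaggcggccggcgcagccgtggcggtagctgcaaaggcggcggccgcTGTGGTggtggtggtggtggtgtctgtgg
NSMF: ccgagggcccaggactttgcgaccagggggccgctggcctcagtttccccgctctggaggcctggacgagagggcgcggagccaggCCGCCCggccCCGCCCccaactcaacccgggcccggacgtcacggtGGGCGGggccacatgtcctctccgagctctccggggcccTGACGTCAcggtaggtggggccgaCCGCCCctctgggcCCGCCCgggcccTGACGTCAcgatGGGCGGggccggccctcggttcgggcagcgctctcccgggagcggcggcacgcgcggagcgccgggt
FBP1: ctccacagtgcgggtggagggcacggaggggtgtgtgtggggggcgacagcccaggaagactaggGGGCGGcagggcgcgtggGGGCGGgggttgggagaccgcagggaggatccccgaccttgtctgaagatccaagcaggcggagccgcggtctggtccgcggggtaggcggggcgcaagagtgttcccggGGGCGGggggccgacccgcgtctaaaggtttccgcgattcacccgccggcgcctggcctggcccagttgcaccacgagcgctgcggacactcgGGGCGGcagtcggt
GC boxes numbered 6 in the NSMF window and 4 each in those of ARHGAP29 and FBP1, and neither NINJ2 window held one. A GC box occurred in 45% of all 35116 RefSeq windows of this length. CG dinucleotides numbered 38, 35 and 32 in the NSMF, ARHGAP29 and FBP1 windows, against 17 and 8 in the NINJ2 windows and a median of 14 over all windows. The NSMF window held the cAMP response element at 2 places. That element was looked for after the sequence had been seen, and 1.85% of all windows held it. The RUNX core stood once in the printed ARHGAP29 window and in no other of the 5 printed, and occurred in 13.1% of all windows. Searches on both strands for GATA (GATAA), ETS (CCGGAA), AP-1 (TGANTCA) and the interferon response element found none in these 5 windows. E-boxes (CANNTG, not capitalised, in 68.7% of all windows) numbered 6 in the second NINJ2 window, some overlapping, and 1 each in the windows of ARHGAP29, NSMF and FBP1. A match here describes letters only.

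Of the targeted genes, SMARCA4 mRNA was 97.5 TPM in gAAVS1 and fell to 44.2 in gSMARCA4 and 49.9 in gSMARCA4_A2, and ARID1B fell from 22.7 to 11.9 in gARID1A_1B. ARID1A was 83.1 TPM in gARID1A and 101 in gARID1A_1B against 94.4 in gAAVS1, and only the first of these differed (limma adjusted p = 0.00734). SMARCA2 was 22.4 TPM in gSMARCA4_A2 against 21.8. The mRNA was thus lower in the groups labelled for SMARCA4 and ARID1B, while ARID1A in gARID1A_1B and SMARCA2 in gSMARCA4_A2 gave no such check of their labels. Depth was 29.7 to 47.9 M reads in Jurkat libraries and 19.7 to 27 M in the other lines. A list of 12 T-cell genes summed to 1780 to 2130 TPM in the guide groups, but single genes moved both ways. Those called higher numbered 4, 4, 5 and 3, and those lower 2, 6, 3 and 4, in gARID1A, gARID1A_1B, gSMARCA4 and gSMARCA4_A2. Of all tested genes 7.72%, 17.0%, 25.1% and 40.9% were higher and 13.2%, 23.1%, 15.8% and 21.1% lower in the same order. With 6 h of BRM014 the list summed to 1590 to 1670 TPM against 2120 to 2180 in DMSO. There 10 of the 12 fell, against 20.7% of all genes. At 8 d it summed to 2470 to 2630 TPM against 1740 to 1850. There 7 rose and 4 fell, against 36.9% and 23.0% of all genes. The part of this list in the BRM014 results below was not tested. In Jurkat libraries 8 myeloid markers summed to at most 0.946 TPM.

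In the gAAVS1 control, which had guides and puromycin selection, the 5 genes did not start from the same place. Its levels were not all those of Jurkat cells in DMSO for 6 h. ARHGAP29 stood at 5.15 times that DMSO group, APOL3 at 2.65 and NINJ2 at 0.716 without overlap, while NSMF and FBP1 overlapped. NINJ2, ARHGAP29 and NSMF were already transcribed in gAAVS1 libraries, at means of 5.01, 6.41 and 2.04 TPM. APOL3 was at 0.124 TPM (8 to 18 reads per library) and FBP1 at 0.0794 TPM (2 reads in each library). The description of genes switched on therefore suits FBP1 and APOL3, and the other 3 stood above 1 TPM in the control. All libraries of each of the 4 BAF guide groups lay above all gAAVS1 libraries for all 5 genes, a separation that the choice of genes largely fixed. The share of all genes separated in this way is not given here, so nothing is drawn from it. Calls at an adjusted p under 0.05 in either direction are another measure. Of all 17936 tested genes, 20.9% were called in gARID1A, 40.0% in gARID1A_1B, 40.9% in gSMARCA4 and 62.1% in gSMARCA4_A2. These 4 comparisons share the gAAVS1 libraries, so each gene's values are set side by side.

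ARHGAP29 stood at 6.63, 6.78 and 5.81 TPM in gAAVS1. It reached 61.6, 65.1 and 59.6 TPM in gSMARCA4, its highest group, at 62.1 ± 2.80 (SD, n = 3) or 9.69 times the control mean. In gARID1A it was 42.1, 39.6 and 37.2 TPM, in gSMARCA4_A2 31.9, 35.6 and 33.1, and in gARID1A_1B 21.7, 21.8 and 22.1. No 2 of these groups overlapped, and in each pair the group with 2 targets was lower than the group with 1. On the log2 scale the differences from gAAVS1 were 3.09, 2.46, 2.22 and 1.63 in that order, the first of them the largest increase of any tested gene in gSMARCA4 on that scale.

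NINJ2 showed the opposite preference among the targets. It was 4.81, 5.05 and 5.18 TPM in gAAVS1 and 41.2, 44.2 and 41.8 in gARID1A, a mean of 42.4 ± 1.58 TPM (SD, n = 3) that was 8.46 times the control. On the log2(TPM + 1) scale this was the largest increase of any tested gene there. In gARID1A_1B it was 26.8, 30.4 and 29.1 TPM. With the ATPase guides it was far lower, at 8.46, 7.82 and 7.28 TPM in gSMARCA4 and 10.8, 11.6 and 10.4 in gSMARCA4_A2. The 4 groups did not overlap one another, but the gSMARCA4 range overlapped that of Jurkat cells in DMSO for 6 h (5.23 to 8.42 TPM). NINJ2 in gSMARCA4 lay above its range in DMSO for 8 d (4.61 to 5.63 TPM). Its difference from gAAVS1 ranked 1st in gARID1A, 11th in gARID1A_1B, 1067th in gSMARCA4 and 792nd in gSMARCA4_A2 among increases.

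NSMF was higher with every guide set and highest with both ARID1 guides. It was 2.25, 1.82 and 2.06 TPM in gAAVS1 and 24.6, 24.6 and 22.7 in gARID1A_1B, a mean of 24.0 ± 1.11 TPM (SD, n = 3) or 11.7 times the control. In gARID1A it was 7.29, 7.40 and 8.29 TPM, so the 2 ARID1 groups were far apart. In gSMARCA4 it was 14.3, 12.5 and 12.5 TPM and in gSMARCA4_A2 16.2, 17.3 and 16.9, also without overlap. In both target families the group with 2 targets was the higher one for NSMF, unlike ARHGAP29. Its log2 differences from gAAVS1 were 1.51, 3.04, 2.21 and 2.55 in gARID1A, gARID1A_1B, gSMARCA4 and gSMARCA4_A2.

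FBP1 was highest by far in cells with both ARID1 guides. Its counts there were 132, 154 and 176 reads, or 4.76, 5.07 and 5.53 TPM. In gARID1A it had 8, 4 and 4 reads and in gSMARCA4 5, 4 and 8, ranges that overlapped. In gSMARCA4_A2 it had 26, 26 and 24 reads (0.858 to 1.03 TPM). With 2 reads per gAAVS1 library, no fold is given; the difference on the log2 scale was 2.50 ± 0.0944 in gARID1A_1B, 0.83 in gSMARCA4_A2, 0.18 in gSMARCA4 and 0.13 in gARID1A. FBP1 passed the filter of 1 TPM in 3 libraries only through gARID1A_1B and 1 library of gSMARCA4_A2.

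APOL3 followed the order of ARHGAP29 at its top but not below it. It was 7.08, 4.98 and 5.11 TPM in gSMARCA4, against 0.0993, 0.137 and 0.135 in gAAVS1, the third largest increase on the log2 scale in that comparison (2.57 ± 0.0928). The mean there, 5.73 ± 1.18 TPM (SD, n = 3), was 46.3 times the control mean, which rests on 8 to 18 reads per library. In gSMARCA4_A2 it was 2.28, 1.87 and 1.78 TPM, in gARID1A_1B 1.77, 1.47 and 1.34, and in gARID1A 0.929, 0.782 and 0.786. None of these 4 ranges overlapped. APOL3 passed the filter on low values through gARID1A_1B, gSMARCA4, gSMARCA4_A2 and BRM014 at 8 d.

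**Figure D1:**
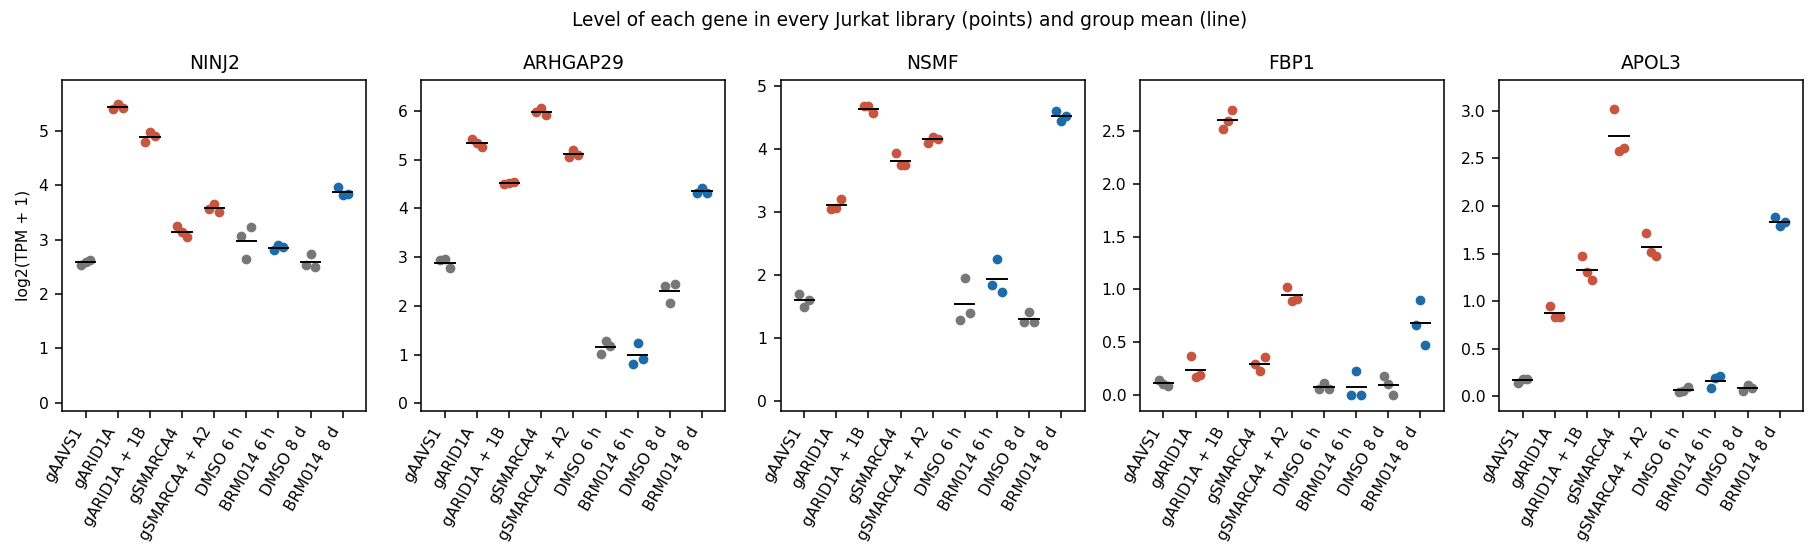
Level of each gene on the log2(TPM + 1) scale (vertical axis, a separate range for each panel) in the 27 Jurkat libraries by group (horizontal axis), with points for libraries and a line for the group mean; control groups are grey, BAF guides red and BRM014 blue. The highest group is gARID1A for NINJ2, gSMARCA4 for ARHGAP29 and APOL3, and gARID1A_1B for NSMF and FBP1, and the 6 h BRM014 points lie among the 6 h DMSO points for NINJ2.

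The genes were picked by their rise in the guide groups and not by the BRM014 groups, though earlier results of these data were known. After 8 d of BRM014 all 5 genes were higher than in DMSO of the same age, and all 5 passed the test. Of all tested genes 59.9% were called in either direction and 36.9% were called higher. Over all tested genes the median difference was 0.076 on the log2 scale, and over the 5 it was 1.75. Because the genes had to reach 1 TPM in 3 libraries to be tested, those figures describe the genes and carry no test of the set.

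NSMF moved most on the log2(TPM + 1) scale. It was 1.39, 1.66 and 1.39 TPM in DMSO and 23.3, 20.7 and 22.1 in BRM014 at 8 d, a difference of 3.22 ± 0.13 on the log2 scale (limma adjusted p = 9.91e-15). The 22.1 ± 1.30 TPM (SD, n = 3) of BRM014 overlapped the range of gARID1A_1B. ARHGAP29 rose from 4.32, 3.16 and 4.48 TPM to 19.0, 20.2 and 19.0, a difference of 2.04 ± 0.10 (limma adjusted p = 2.33e-13). Its BRM014 level lay below those of all 4 guide groups, whose lowest library had 21.7 TPM, but gAAVS1 was 1.61 times DMSO at 8 d with no overlap. Against its own control BRM014 stood at 4.86 times and gARID1A_1B at 3.42 times.

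APOL3 had 4, 9 and 6 reads in DMSO and 304, 243 and 242 in BRM014 at 8 d, or 2.69, 2.45 and 2.57 TPM. Its difference was 1.75 ± 0.0928 on the log2 scale (limma adjusted p = 8.61e-13), and its mean TPM was 40.1 times that of DMSO, against 14.9 times for NSMF. Its BRM014 level lay between those of gSMARCA4 and gSMARCA4_A2 with no overlap, where gAAVS1 was 1.93 times DMSO at 8 d. NINJ2 went from 101, 137 and 100 reads to 378, 298 and 288, or from 5.01 ± 0.541 to 13.7 ± 0.81 TPM (SD, n = 3), a difference of 1.29 ± 0.0992 (limma adjusted p = 2.94e-10). That placed it above both ATPase guide groups and below both ARID1 guide groups. FBP1 had 3, 2 and 0 reads in DMSO and 16, 21 and 9 in BRM014, with a difference of 0.58 ± 0.0944 (limma adjusted p = 1.56e-05). Its BRM014 level of 0.392 to 0.869 TPM overlapped gSMARCA4_A2 and was far from the 4.76 TPM or more of gARID1A_1B.

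After 6 h of BRM014 only NSMF passed the test, in a comparison where 47.4% of all genes did. It was 1.44, 2.90 and 1.65 TPM in DMSO and 2.61, 3.78 and 2.32 in BRM014, with overlapping groups and a difference of 0.40 ± 0.13 on the log2 scale (limma adjusted p = 0.0157). The call was lost without the first or the third DMSO library or the second BRM014 library, with differences of 0.26, 0.32 and 0.24. ARHGAP29 was 0.744, 1.37 and 0.882 TPM in BRM014 and 1.03, 1.44 and 1.26 in DMSO, a difference of -0.18 (limma adjusted p = 0.157). Without the second BRM014 library it was -0.31 and passed (limma adjusted p = 0.013). For NINJ2 the difference was -0.13 (limma adjusted p = 0.32), but without the second DMSO library it was -0.29 and passed (limma adjusted p = 0.00373). APOL3 had 6, 14 and 14 reads in BRM014 and 3, 4 and 7 in DMSO, and FBP1 0, 4 and 0 reads against 1, 2 and 1. Neither passed, at limma adjusted p = 0.401 and 0.983, but with a pseudocount of 0.1 APOL3 did (0.58, limma adjusted p = 0.0161).

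The difference between the 8 d and the 6 h effect was tested directly, and all 5 genes passed with the 8 d effect the higher. Of all tested genes 44.2% passed in either direction and 25.7% in that direction. It was 2.82 for NSMF (limma adjusted p = 1.29e-10), 2.22 for ARHGAP29 (limma adjusted p = 1.04e-10), 1.65 for APOL3 (limma adjusted p = 2.24e-09), 1.41 for NINJ2 (limma adjusted p = 4.96e-08) and 0.59 for FBP1 (limma adjusted p = 0.00109). The DMSO levels moved too. Between 6 h and 8 d of DMSO ARHGAP29 rose by 1.14 (limma adjusted p = 2.02e-07, no overlap), while NINJ2 fell by 0.40 (limma adjusted p = 0.0038, overlapping groups) and NSMF, FBP1 and APOL3 were not called. The NINJ2 call was lost with only the compared groups in the fit (limma adjusted p = 0.14), and without the first 6 h DMSO library NSMF was called at -0.38 (limma adjusted p = 0.0382). In that comparison 35.3% of all genes were called. The DMSO libraries of the 2 times also differ in the length of culture, so time in DMSO and time in culture cannot be told apart.

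**Figure D2:**
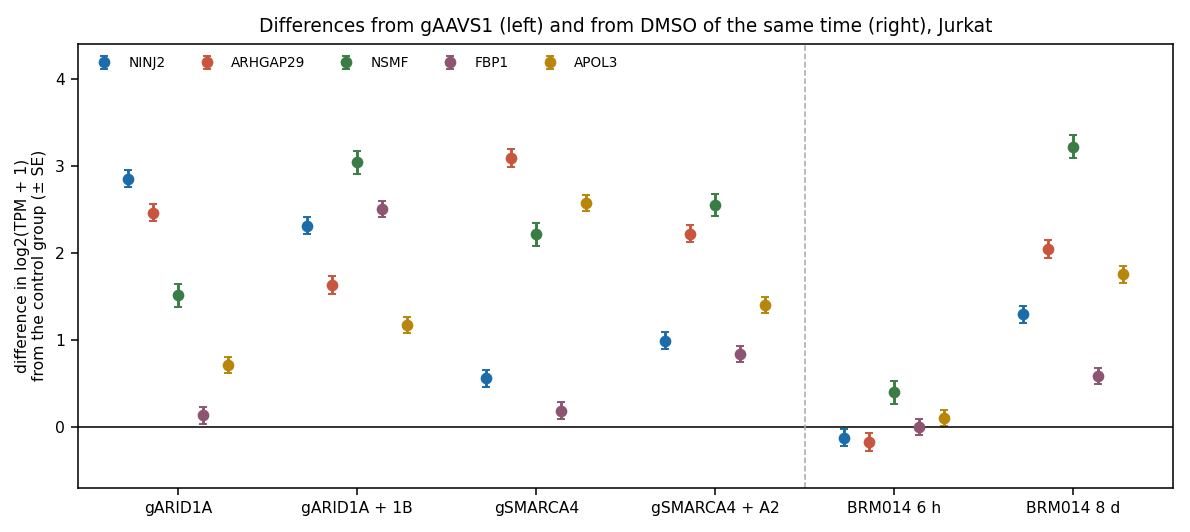
Difference from the control group on the log2(TPM + 1) scale (vertical axis, points with standard errors from limma) for the 5 genes in 4 guide groups against gAAVS1 and in BRM014 against DMSO of the same time (horizontal axis). At 6 h the points lie between -0.18 and 0.40, at 8 d between 0.58 and 3.22, and the order of the genes differs from one guide group to the next.

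Markers of other cell types were read beside these rises. A list of 6 neuronal genes summed to 25.8 to 27.9 TPM in DMSO and 71.5 to 78.8 in BRM014 at 8 d. Against 30.3 to 33.5 TPM in gAAVS1, the sum was lower in gARID1A, at 25.2 to 27.3. It was lower too in gARID1A_1B, where NSMF peaked, at 23.3 to 24.8 TPM. It was higher in gSMARCA4, at 47.7 to 53.1 TPM, and in gSMARCA4_A2, at 57.8 to 64.3. The rise was that of TUBB3, a tubulin, from 14.2 to 68.6 TPM at 8 d, while SNAP25 and SYT1, which serve synaptic release, fell by 0.80 and 0.89 on the log2 scale. The sum of 6 endothelial genes fell with 8 d of BRM014, from 16.0 to 18.1 TPM down to 3.19 to 3.44. In both groups 5 of 6 were under 1 TPM throughout. Only PECAM1 was tested, and it fell from 16.8 to 2.94 TPM. In gARID1A_1B, gSMARCA4 and gSMARCA4_A2 PECAM1 was also lower (differences -0.858, -0.69 and -1.12), and in gARID1A it was not called. The 8 epithelial and hepatocyte genes went from 2.19 to 3.60 TPM up to 6.31 to 7.48 at 8 d. Against 3.65 to 4.38 TPM in gAAVS1 they lay at 4.65 to 5.67 in gARID1A and 7.69 to 8.56 in gARID1A_1B. In gSMARCA4 they lay at 5.28 to 6.22 TPM and in gSMARCA4_A2 at 6.62 to 7.53, with 6 of 8 under 1 TPM throughout. The 6 B-cell genes summed to 4.89 to 5.94 TPM in gAAVS1, 7.43 to 9.51 in gARID1A and 8.04 to 8.80 in gARID1A_1B. They summed to 3.18 to 3.74 TPM in gSMARCA4 and 3.29 to 3.87 in gSMARCA4_A2. With 8 d of BRM014 they went from 3.97 to 4.45 TPM down to 1.85 to 2.06, with 5 of 6 under 1 TPM throughout. The part of these markers in the results for NINJ2, NSMF and FBP1 was not tested.

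The genes beside the 5 were examined, 3 on either side of each. Of 30 such neighbours 18 were tested in Jurkat, and at 8 d of BRM014 11 were higher, 4 lower and 3 not called, with a median difference of 0.45 against 0.076 over all tested genes. In the guide groups 5, 8, 9 and 8 were higher and 2, 3, 0 and 1 lower for gARID1A, gARID1A_1B, gSMARCA4 and gSMARCA4_A2. Of all tested genes 7.72%, 17.0%, 25.1% and 40.9% were higher and 13.2%, 23.1%, 15.8% and 21.1% lower in the same order, so the count in gSMARCA4_A2 was near the share of all genes. At 8 d of BRM014 the shares over all genes were 36.9% higher and 23.0% lower. After 6 h of BRM014 3 neighbours were higher and 2 lower, against 26.8% and 20.7% of all genes.

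PNPLA7, a lysophospholipase gene whose annotated end lies 618 bases upstream of NSMF on the same strand, rose in all 4 guide groups and at both times. It was 0.571 TPM in gAAVS1 and 0.952, 2.08, 1.61 and 4.52 in gARID1A, gARID1A_1B, gSMARCA4 and gSMARCA4_A2. With BRM014 it went from 0.419 to 0.925 TPM at 6 h (difference 0.44, limma adjusted p = 7.13e-05) and from 0.432 to 2.95 at 8 d (difference 1.47, limma adjusted p = 7.98e-13). Unlike NSMF it was highest in gSMARCA4_A2. LINC02455, a long noncoding RNA 9147 bases from NINJ2, had 0 reads in all gAAVS1 libraries and 15 to 29 in gARID1A, 17 to 21 in gARID1A_1B, 7 to 10 in gSMARCA4 and 4 to 8 in gSMARCA4_A2. It shared with NINJ2 the higher level in the ARID1 groups, on few reads.

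FBP2, the muscle form of the enzyme that FBP1 encodes, lies 9309 bases from FBP1. It was 0.545 TPM in gAAVS1 and rose to 1.19 in gARID1A_1B, 1.10 in gSMARCA4 and 2.02 in gSMARCA4_A2, and from 0.424 to 1.36 with 8 d of BRM014 (difference 0.72, limma adjusted p = 1.75e-05). PCAT7, a noncoding RNA that overlaps FBP2 on the other strand, went from 1.04 to 1.88, 1.89 and 3.14 TPM in the same 3 guide groups. Beside APOL3, APOL2 rose in all 4 guide groups, from 16.1 TPM to 19.5, 21.0, 30.2 and 19.8, and by 0.71 with 8 d of BRM014 (limma adjusted p = 2.21e-09). The APOL2 call in gSMARCA4_A2 was lost when libraries were rescaled by median ratios (0.14, limma adjusted p = 0.0884). Beside ARHGAP29, the retinal transporter gene ABCA4 went from 2.89 TPM to 6.10 in gARID1A and 4.97 in gSMARCA4, and it did not pass in the groups with 2 targets. On the far side ABCD3 was not called with any guide set and fell by 0.35 with 8 d of BRM014 (limma adjusted p = 0.000106).

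The Jurkat kit did not keep strand, so reads of NINJ2, ARHGAP29, FBP2 and their opposite-strand partners cannot be told apart there. NINJ2-AS1, which overlaps NINJ2 by 14988 bases, was 1.17 TPM in gAAVS1 and 1.29 to 1.30 TPM in gARID1A, gARID1A_1B and gSMARCA4, where it was not called, and 2.37 TPM in gSMARCA4_A2. ARHGAP29-AS1 was at 0 to 0.0939 TPM in every Jurkat group. MIR7114 lies within NSMF on its strand, so its reads are of the same stretch. How reads shared by the similar APOL genes, or by FBP1 and FBP2, were assigned is not given in the sources used here.

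**Figure D3:**
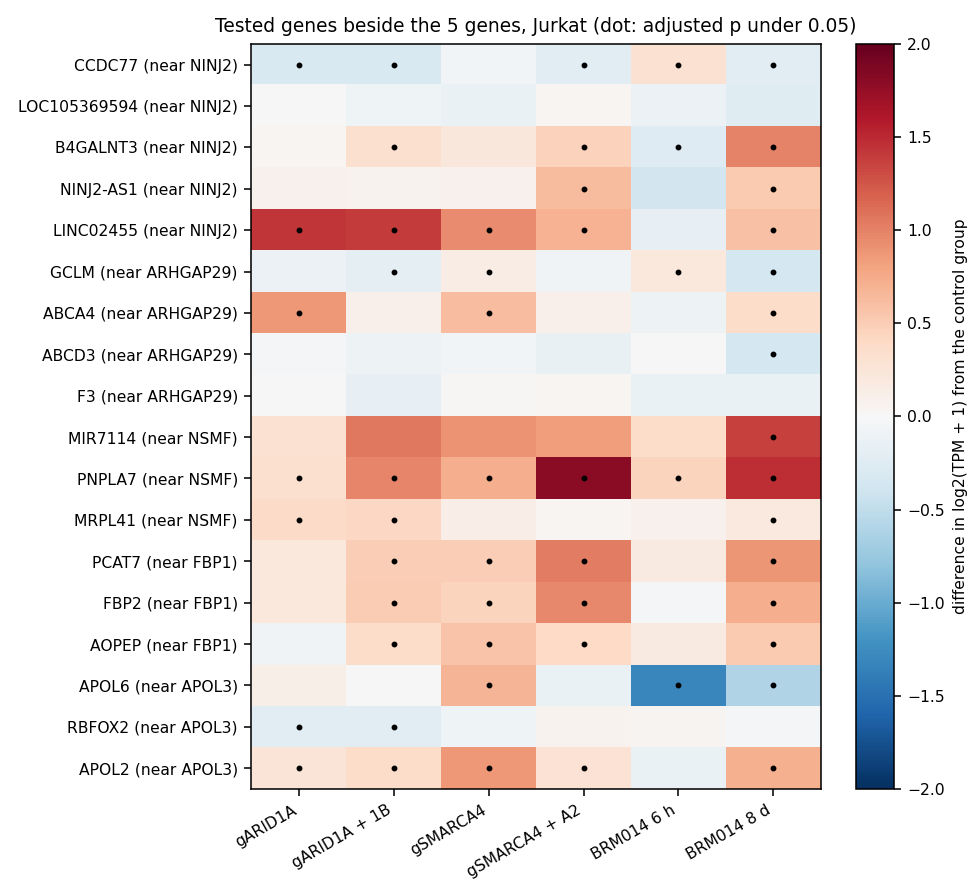
Difference on the log2(TPM + 1) scale (colour) of the 18 tested genes that neighbour the 5 genes (rows) in the guide groups against gAAVS1 and BRM014 against DMSO (columns), with a dot where the adjusted p was under 0.05. PNPLA7 carries a dot in all 6 columns, LINC02455 and APOL2 in all but 6 h of BRM014, and F3 and LOC105369594 in none.

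The pathways of NSMF, FBP1, NINJ2 and APOL3 were described with lists that leave the 5 genes out. The counts are to be set against the shares of all genes called higher and lower. These were 36.9% and 23.0% at 8 d of BRM014, 26.8% and 20.7% at 6 h, and as given above for the guide groups. Around NSMF, 14 of 19 genes between the NMDA receptor and CREB were tested, and 8 rose and 3 fell with 8 d of BRM014 (median 0.23 against 0.076 over all genes). CAMK4, a nuclear calcium-dependent kinase, fell from 32.7 to 8.07 TPM (difference -1.89, limma adjusted p = 8.25e-14) and was lower in all 4 guide groups, by 0.81 to 1.29. CREM, a CREB relative, fell from 7.11 to 4.33 TPM and was likewise lower in all 4. CALM3, which encodes calmodulin, rose from 338 to 555 TPM and in all 4. INA, a neurofilament subunit that binds NSMF, fell from 22.6 to 5.96 TPM at 6 h and rose from 17.3 to 29.8 at 8 d. At 6 h 7 of the 14 rose and 3 fell, and the falls at both times were near the share of all genes. In gARID1A, gARID1A_1B, gSMARCA4 and gSMARCA4_A2 3, 4, 4 and 9 rose and 3, 4, 2 and 2 fell. In gSMARCA4 those counts were near the shares of all genes, 25.1% and 15.8%.

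Around FBP1, 15 of 20 genes of gluconeogenesis and fructose phosphate metabolism were tested. With 8 d of BRM014 2 rose and 10 fell (median -0.24), where 36.9% of all genes rose and 23.0% fell. In gSMARCA4_A2 3 rose and 8 fell, against 40.9% and 21.1% of all genes, and in gARID1A_1B, where FBP1 peaked, 2 rose and 5 fell, against 17.0% and 23.1%. PFKM, a phosphofructokinase that FBP1 opposes, fell from 47.6 to 20.6 TPM at 8 d (difference -1.17, limma adjusted p = 1.91e-11). It was 36.7 TPM in gARID1A_1B, 23.6 in gSMARCA4 and 23.8 in gSMARCA4_A2 against 46.8 in gAAVS1, lower in all 3. PCK2, the mitochondrial PEP carboxykinase, fell from 18.4 to 6.23 TPM at 8 d and passed in no guide group. In gSMARCA4 1 rose and 5 fell, and in gARID1A 2 rose and 1 fell.

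Around NINJ2, 8 of 12 genes of the ninjurin family and of lytic cell death were tested, with 3 higher and 3 lower at 8 d. The count of rises there was near the 36.9% of all genes. At 6 h 5 were lower and none higher, where 26.8% of all genes rose and 20.7% fell. NINJ1, the relative that breaks the plasma membrane of dying cells, was 15.7 TPM in gAAVS1 and 13.1 to 15.4 in the BAF guide groups, where it was not called. It fell from 16.8 to 11.9 TPM at 6 h of BRM014 (limma adjusted p = 0.000596) and did not pass at 8 d. GSDMB, a gasdermin, was lower in all 4 guide groups, at 19.8 to 26.5 TPM against 32.8. CASP4, an inflammatory caspase, fell from 3.79 to 1.19 TPM at 8 d. In gARID1A, gARID1A_1B, gSMARCA4 and gSMARCA4_A2 0, 2, 2 and 2 rose and 3, 4, 2 and 3 fell. In gSMARCA4 25.1% of all genes rose and 15.8% fell, so the count of rises there was near that of all genes.

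Around APOL3, 20 of 25 interferon-induced genes were tested. At 8 d 10 rose and 5 fell (median 0.21), and in gARID1A, gARID1A_1B, gSMARCA4 and gSMARCA4_A2 9, 11, 13 and 12 rose and 2, 2, 1 and 6 fell. Of all genes 36.9% rose and 23.0% fell at 8 d, so the count of falls there was near that of all genes, while in gSMARCA4 25.1% rose and 15.8% fell. Their largest median among guides, 0.51 against 0.0365 over all genes, was in gSMARCA4, where APOL3 peaked. IRF1, an interferon regulatory factor, was 18.4 TPM in gAAVS1, 70.8 in gSMARCA4 and 32.9 to 37.0 in the other 3. IFIT3, an antiviral gene, went from 0.683 TPM to 9.42 in gARID1A_1B, and from 0.247 to 2.91 with 8 d of BRM014. IFI44 went the other way, from 4.72 TPM to 0.541 in gSMARCA4_A2 and from 4.00 to 0.0313 at 8 d. At 6 h, when APOL3 was not called, 6 rose, near the share of all genes, and 7 fell, with IRF1 down from 18.5 to 10.9 TPM. Of the APOL family 3 of 6 listed genes were tested, and at 8 d APOL2 rose, APOL6 fell from 5.93 to 3.54 TPM and the third was not called. The part of interferon signalling in the APOL3 result was not tested.

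Rescaling by median ratios lowered the median of all genes by 0.14 in gSMARCA4_A2, from 0.11 to -0.0331, and moved it by less than 0.1 in all other comparisons. The share of all genes called higher and lower went from 40.9% and 21.1% to 28.1% and 34.0% in gSMARCA4_A2, from 25.1% and 15.8% to 21.1% and 20.5% in gSMARCA4, and from 7.72% and 13.2% to 11.2% and 10.9% in gARID1A. With BRM014 it went from 26.8% and 20.7% to 23.2% and 24.1% at 6 h and from 36.9% and 23.0% to 29.5% and 30.9% at 8 d. In the other lines it went from 28.9% and 20.9% to 22.0% and 26.1% in CCRF-CEM, from 22.9% and 15.2% to 16.9% and 20.5% in KOPT-K1, and from 26.6% and 19.3% to 21.5% and 23.1% in TALL-1. Among the lists in gSMARCA4_A2, rescaling left 5 higher and 4 lower around NSMF, 9 and 6 among interferon-induced genes, and 7 and 4 among neighbours. At 8 d it left 8 and 4 around NSMF, 2 and 12 around FBP1, and 10 and 5 among neighbours. In gSMARCA4_A2 the differences of 4 of the 5 genes were then 2.40 for NSMF, 2.06 for ARHGAP29, 0.84 for NINJ2 and 0.75 for FBP1.

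Over the 27 Jurkat libraries, which share their controls in part, each gene's profile was set beside those of all tested genes. This is a description by Pearson's r on log2(TPM + 1). For ARHGAP29 the most alike were ID3 (0.963), RAB3IL1 (0.944) and MCOLN2 (0.940). For NINJ2 they were the neighbouring LINC02455 (0.881), LOC101929432 (0.875) and GPX4 (0.863), the lowest values of the 5. For NSMF they were SPATS2L (0.979), ESPN (0.970) and PYGO1 (0.968), for FBP1 LHX1 (0.966), LOC105372349 (0.958) and SCML4 (0.930), and for APOL3 DDX60 (0.938), PARP14 (0.936) and TRIM21 (0.934). The FBP1 values lean on gARID1A_1B, the highest group of FBP1 and of the genes named beside it. By Spearman's rank correlation they were 0.861, 0.711 and 0.874. Among the 5 genes themselves r ran from 0.331 for NINJ2 with APOL3 to 0.842 for ARHGAP29 with APOL3. The libraries include the guide groups whose rises chose the 5 genes, so positive r among them was largely fixed in advance.

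In the other 3 lines, where BRM014 was given for 6 h only, the starting levels of the genes differed widely between lines. FBP1 had 1 read in all 18 libraries together and was not tested; the other 4 were. Between DMSO groups, where 62.5% of genes were called between CCRF-CEM and KOPT-K1, 67.6% between TALL-1 and CCRF-CEM and 70.5% between TALL-1 and KOPT-K1, 4, 4 and 2 of the 4 genes were called. Levels in these lines were not tested against Jurkat, since the table, RNA kit and library kit differ along with the line.

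NINJ2 was highest in CCRF-CEM, at 34.2, 26.6 and 32.8 TPM in DMSO. In KOPT-K1 it was 8.40, 10.3 and 7.90 TPM and in TALL-1 0.762, 0.607 and 0.413 (6 to 11 reads), and all 3 lines differed (limma adjusted p at most 7.89e-09). NSMF had another order, at 23.1, 23.6 and 22.1 TPM in TALL-1, 2.73, 3.08 and 3.02 in CCRF-CEM, and 4, 0 and 5 reads in KOPT-K1, again with all 3 lines different (limma adjusted p at most 2.84e-12). APOL3, nearly silent in Jurkat DMSO, was 13.2, 10.9 and 15.1 TPM in CCRF-CEM, 20.4, 20.1 and 20.1 in KOPT-K1 and 19.3, 20.1 and 17.0 in TALL-1. It was lower in CCRF-CEM than in KOPT-K1 (limma adjusted p = 9.56e-05) or TALL-1 (limma adjusted p = 0.000437), and the last 2 lines were not called different (limma adjusted p = 0.383). ARHGAP29 was 2.88, 4.02 and 1.84 TPM in CCRF-CEM and had at most 8 reads in any library of KOPT-K1 and TALL-1.

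In CCRF-CEM all 4 genes passed after 6 h of BRM014, against 49.8% of all genes, and they split 2 and 2. ARHGAP29 fell to 0.990, 1.08 and 0.431 TPM (difference -1.08 ± 0.16, limma adjusted p = 6.26e-05). It met the filter of 1 TPM in 3 libraries through the DMSO group of this line, where it is high, and 1 BRM014 library, so it could pass only as a gene high in that group. NINJ2 fell to 18.5, 18.7 and 17.3 TPM (difference -0.74 ± 0.12, limma adjusted p = 0.000152). APOL3 rose to 22.0, 23.1 and 18.4 TPM (difference 0.66 ± 0.10, limma adjusted p = 7.14e-05). NSMF rose to 3.62, 3.99 and 4.19 TPM (difference 0.32 ± 0.0712, limma adjusted p = 0.00147). With a pseudocount of 0.1 NINJ2 and NSMF no longer passed (limma adjusted p = 0.0851 and 0.197), and NSMF was also lost with limma-voom on whole reads (0.42, limma adjusted p = 0.0642).

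In KOPT-K1, where 38.1% of genes were called, APOL3 rose to 29.7, 30.2 and 28.5 TPM (difference 0.52, limma adjusted p = 0.000794). NINJ2 was 6.07, 7.16 and 7.17 TPM in BRM014, a difference of -0.34 with limma adjusted p = 0.0439. That call was lost without the first or second DMSO library or any 1 of the BRM014 libraries, with differences from -0.23 to -0.37. ARHGAP29 had 1, 0 and 1 reads in BRM014 against 5, 8 and 5, and NSMF 2, 1 and 3 against 4, 0 and 5, counts too low for a fold. In TALL-1, where 45.9% of genes were called, APOL3 fell to 14.0, 15.1 and 12.6 TPM (difference -0.41, limma adjusted p = 0.00361), its only fall. NINJ2 fell to 2, 5 and 0 reads from 11, 9 and 6 (difference -0.48, limma adjusted p = 0.0053). NSMF was 20.4, 19.2 and 21.0 TPM in BRM014, a difference of -0.17 with limma adjusted p = 0.0589.

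The effects themselves were tested between these lines. APOL3 responded differently in TALL-1 from CCRF-CEM by -1.07 (limma adjusted p = 7.66e-05) and from KOPT-K1 by -0.94 (limma adjusted p = 0.000264), and CCRF-CEM and KOPT-K1 differed by 0.14 (limma adjusted p = 0.574). ARHGAP29 differed between CCRF-CEM and KOPT-K1 by -0.98 (limma adjusted p = 0.00841) and between TALL-1 and CCRF-CEM by 1.04 (limma adjusted p = 0.00462), with at most 8 reads in any library of KOPT-K1 or TALL-1. With limma-voom on whole reads the first turned to 0.825 (limma adjusted p = 0.736) and the second was not called (0.97, limma adjusted p = 0.709), and with a pseudocount of 0.1 the first was not called (limma adjusted p = 0.188). By mean TPM the BRM014 group was 0.108 times DMSO in KOPT-K1 and 0.286 times in CCRF-CEM, so the direction of the first depends on the scale. ARHGAP29 met the filter mainly through the CCRF-CEM DMSO group, where it is high, so both differences were partly built in. NSMF differed between CCRF-CEM and KOPT-K1 by 0.37 (limma adjusted p = 0.02) and between TALL-1 and CCRF-CEM by -0.50 (limma adjusted p = 0.0024). Neither passed with a pseudocount of 0.1 (limma adjusted p = 0.307 and 0.293) or with limma-voom (limma adjusted p = 0.733 and 0.0578). The first was also lost with only the compared groups in the fit (limma adjusted p = 0.0678), and KOPT-K1 libraries had at most 5 reads of NSMF. NINJ2 did not pass in either pair with CCRF-CEM (limma adjusted p = 0.131 and 0.33). Of all genes 18.3% were called between CCRF-CEM and KOPT-K1, 20.4% between TALL-1 and CCRF-CEM and 21.4% between TALL-1 and KOPT-K1.

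Of 15 tested neighbours of the 5 genes, 4 were higher and 5 lower in CCRF-CEM, 3 and 4 in KOPT-K1 and 6 and 4 in TALL-1. Of all tested genes 28.9%, 22.9% and 26.6% were higher and 20.9%, 15.2% and 19.3% lower in the same order. The counts of rises in CCRF-CEM and KOPT-K1 were thus near the shares of all genes. PNPLA7 rose in CCRF-CEM from 5.53 to 6.98 TPM (limma adjusted p = 0.0259, lost on rescaling by median ratios at 0.0878). APOL2 rose in KOPT-K1 from 45.1 to 71.0 TPM and in TALL-1 from 29.0 to 37.8, where APOL3 fell. APOL6 and APOL1 fell by 1.88 and 1.08 in TALL-1, and by 0.82 and 1.16 in CCRF-CEM, where APOL3 rose. NINJ1 fell in CCRF-CEM, where NINJ2 fell too, from 2.64 to 1.14 TPM and in KOPT-K1 from 22.5 to 10.8.

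**Figure D4:**
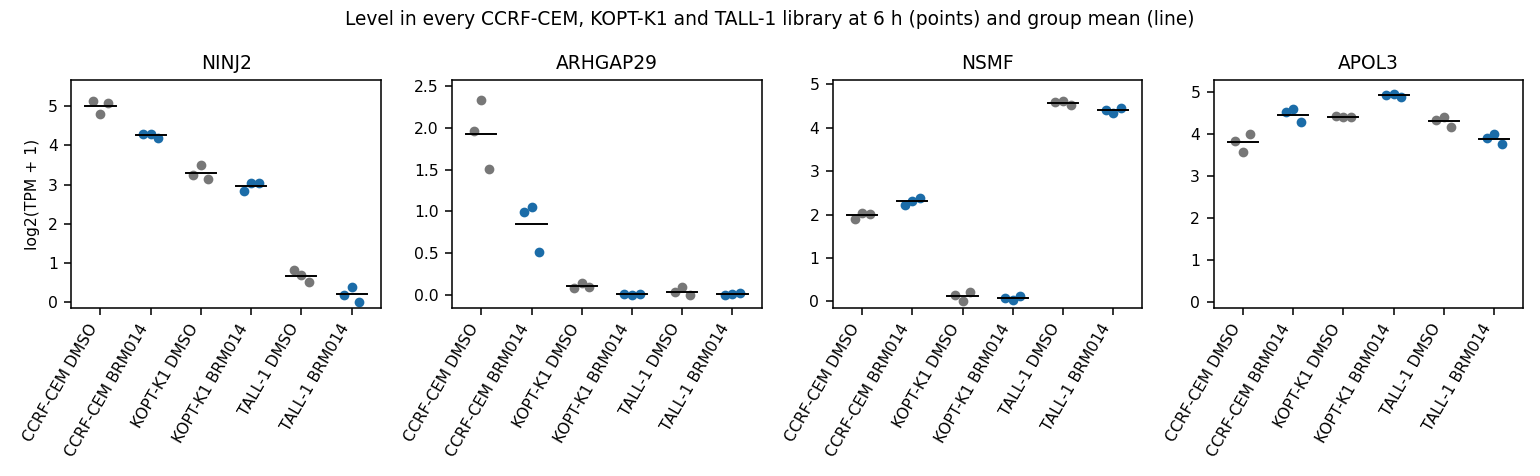
Level of NINJ2, ARHGAP29, NSMF and APOL3 on the log2(TPM + 1) scale (vertical axis, a separate range for each panel) in the libraries of CCRF-CEM, KOPT-K1 and TALL-1 by line and treatment for 6 h (horizontal axis), with points for libraries and a line for the group mean; DMSO is grey and BRM014 blue. NINJ2 is highest in CCRF-CEM and lowest in TALL-1, NSMF is highest in TALL-1, and APOL3 is above the DMSO points with BRM014 in CCRF-CEM and KOPT-K1 and below them in TALL-1.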

How the data were processed

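The 5 genes and all gene lists were chosen with earlier results of these data known. The authors deposited TPM for 38557 genes, in 1 table for Jurkat libraries and another for the rest, with the length of every gene. Reads were aligned with HISAT2 2.2.1 to hg38 and counted with featureCounts 2.0.3, per the submitters' processing notes. Those notes also name DESeq2 1.38.2, whose output was not used here. TPM times gene length gave whole reads, within 0.01, for 100% of values above 0, and the read numbers in the text are these. A whole-read depth of 29.7 to 47.9 M in Jurkat and 19.7 to 27 M elsewhere limits the precision of short genes at low TPM most, and read numbers are given for such values.

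Genes that reached 1 TPM in 3 or more libraries were tested, table by table, on log2(TPM + 1) with limma 3.58.1 (eBayes with trend and robust) in R 4.3.3, all groups of a table in 1 fit (18 and 12 residual degrees of freedom), after a test on simulated data. All 5 genes were tested in Jurkat and 4 of 5 in the other lines. No 2 replicates were identical, and their chi-square per degree of freedom ran from 2.59 to 48. Members of lists and neighbours were named for the largest called changes or for their place beside the 5 genes, and 3 genes per member by likeness. Some others were named after their values were seen. A few results, among them the list around ARHGAP29, are not reported here. Positions and promoters are from RefSeq on GRCh38.p14. Alternatives were another pseudocount, other filters on low values, median-ratio rescaling, mitochondrial genes left out, eBayes without trend, limma-voom on whole reads, only the compared groups in the fit, a replicate block and each library left out. Replicate numbers were taken as pairing where same-numbered libraries departed together from their group means with a correlation over 0.1 in every pair, which held only in CCRF-CEM (0.12, 0.29 and 0.45).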

Additional observations from a re-analysis of the deposited data

Results flagged for a closer look

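The 8 d effect of BRM014 in Jurkat differed from its 6 h effect for each of the 5 genes in a direct limma test: by 2.82 on the log2 scale for NSMF, 2.22 for ARHGAP29, 1.65 for APOL3, 1.41 for NINJ2 and 0.59 for FBP1. The DMSO level of ARHGAP29 itself rose by 1.14 between the times.

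Between lines treated for 6 h, the response of APOL3 differed in TALL-1 from CCRF-CEM by -1.07 and from KOPT-K1 by -0.94. For ARHGAP29 the CCRF-CEM response differed from that of KOPT-K1 by -0.98, and the TALL-1 response from that of CCRF-CEM by 1.04, with at most 8 reads in any KOPT-K1 or TALL-1 library. With limma-voom on whole reads the first turned to 0.825 (limma adjusted p = 0.736) and the second was 0.972 (limma adjusted p = 0.709), neither called. ARHGAP29 met the filter mainly through the CCRF-CEM DMSO group, where it is high, so both differences were partly built in. The NSMF response in CCRF-CEM differed from that in KOPT-K1 by 0.37, where KOPT-K1 libraries had at most 5 reads, and the TALL-1 response from the CCRF-CEM one by -0.50. Neither NSMF difference was called with limma-voom or with a pseudocount of 0.1. The part of low counts in these differences was not tested.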

How the results depend on the processing

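The number of the 5 genes called with 8 d of BRM014 stayed at 5 under every alternative that tested all 5; with a filter of 5 TPM only 3 were tested, and 3 were called, as for the difference between 8 d and 6 h. At 6 h in Jurkat the count was 1, became 2 with a pseudocount of 0.1, which added APOL3, and 0 with only the compared groups in the fit, and ran from 0 to 2 with single libraries left out. The DMSO change from 6 h to 8 d went from 2 calls to 1 with only those groups in the fit. In CCRF-CEM 4 calls became 2 with a pseudocount of 0.1. In KOPT-K1 2 calls became 1 with a pseudocount of 0.1, with no filter, with mitochondrial genes left out and with limma-voom, and ran from 1 to 2 with single libraries left out. For CCRF-CEM against KOPT-K1 2 calls became 0 with a pseudocount of 0.1 and with limma-voom and 1 with a filter of 5 TPM and with only the compared lines, and ran from 1 to 2 with single libraries left out, 1 without the first CCRF-CEM or the third KOPT-K1 DMSO library. For TALL-1 against CCRF-CEM 3 calls became 1 with limma-voom, and NSMF was also lost with a pseudocount of 0.1. With limma-voom the ARHGAP29 difference between CCRF-CEM and KOPT-K1 changed sign, to 0.825 with a standard error of 1.24 (limma adjusted p = 0.736). The counts that involve CCRF-CEM include ARHGAP29, which met the filter mainly through the CCRF-CEM DMSO group where it is high. The cause of these shifts was not tested.

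With the replicate number as a block, in CCRF-CEM where the numbers pair the libraries, no call on the 5 genes changed. Elsewhere the numbers are not shown to pair, and the block moved 1 call, NSMF in TALL-1 (-0.174, limma adjusted p = 0.0396). That difference also passed with only the TALL-1 groups, with eBayes without trend, and at -0.238 after median-ratio rescaling. Same-numbered libraries correlated best with each other for all 3 numbers at 6 h in Jurkat, in gARID1A_1B, KOPT-K1 and TALL-1. The guide differences of low genes moved with the scale: FBP1 in gARID1A_1B was 4.87 with a pseudocount of 0.1 and 5.8 with limma-voom, and APOL3 in gSMARCA4 was 4.69 and 5.41. FBP1 in the control groups is limited by few reads.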
